A study of Mus musculus with 2 samples.

Results

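The genes described here encode the protein folding machinery of the endoplasmic reticulum (ER) in an insulin-producing cell, together with the sensors that monitor it. They were chosen by symbol from a list of 42 chaperones, disulfide isomerases, prolyl isomerases, ER-associated degradation factors and unfolded protein response (UPR) genes. All 42 had a row in each deposited table, out of 55466 genes listed. The cells were MIN6, an insulin-secreting line derived from a mouse beta-cell tumour. After 0.5 h at 2.8 mM glucose they spent 1 h in a Krebs-type buffer (KRBH) that held either 2.8 mM glucose, labelled hypoglycemic and called low here, or 25 mM glucose, labelled hyperglycemic and called high. No genetic change or other agent is named for either group, and 1 RNA library represents each. The sources used here do not say whether a library came from 1 well or from several. No value below therefore has a replicate error, no difference could be tested, and each comparison is one between 2 libraries.

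Proinsulin enters the ER as an unfolded chain and needs disulfide bonds before it can move on to the secretory granules. BiP, the product of Hspa5, holds unfolded chains with the help of J-domain cochaperones and nucleotide exchange factors, while disulfide isomerases form and rearrange the bonds. When unfolded chains accumulate, the sensors IRE1, PERK and ATF6 are activated, and the transcription factors XBP1 and ATF6 raise transcription of chaperone and degradation genes through response elements in their promoters. Chains that fail to fold are sent back to the cytosol by the degradation machinery around the ligase HRD1. Signalling by the sensors runs through phosphorylation, proteolysis and RNA splicing, and gene-level RNA abundance does not measure these steps.

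Each library listed a level in FPKM, fragments per kilobase of transcript scaled to library size, so levels can be compared between genes. Low values advanced in steps that imply 19460000 fragments in low and 16600000 in high glucose. Of 14 beta-cell markers, all 14 averaged 1 FPKM or more over the libraries, and Ins1 and Ins2 together stood at 64522 FPKM in low and 55190 FPKM in high glucose. The alpha-cell hormone gene Gcg was at 2804 and 2764 FPKM. The 13 acinar markers summed to 23.1 FPKM in low and 25.1 FPKM in high glucose, nearly all of it Cela1 (21.0 and 23.9 FPKM). Of these markers, 6 were listed at 0 in both libraries, as were Sst, Ppy and the 3 ductal markers.

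Promoters of the set were searched for known response elements of the UPR. The ER stress response element (ERSE), bound by ATF6 together with NF-Y, reads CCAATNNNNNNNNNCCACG. A window from 250 bases before to 50 bases after a RefSeq transcription start (GRCm38.p6) was at hand for 36 of the 42 genes, not for Atf6, Derl1, Hspa13, Hyou1, Manf and Sil1. On either strand, the ERSE letters occurred for 9 of these 36 genes (25%), against 37 of 27025 genes in the whole table (0.137%). The 9 genes made up 24.3% of all genes with the element. They were Hspa5, Hsp90b1, Calr, Canx, Pdia6, Dnajc3, Creld2, Syvn1 and Derl3, and Hsp90b1 held 2 copies. Among 9092 genes with a window and a mean FPKM of at least 1 the share was 0.165%. The elements searched are known from UPR genes, which the list was chosen to hold. These contrasts and those below therefore describe the list and are not an independent result.

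The matches are shown for the bases between their fixed ends, which differ. The ends are identical because the search required those letters, and copies with other letters there were not sought. They are written 5′ to 3′ on the strand that carries CCAAT, with the element in capitals and 6 flanking bases on each side in lower case.

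Hspa5 (chr2:34772019-34772049, + strand): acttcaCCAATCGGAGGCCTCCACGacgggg

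Hsp90b1, nearer copy (chr10:86705527-86705557, + strand): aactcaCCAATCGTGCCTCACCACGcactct

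Hsp90b1, farther copy (chr10:86705632-86705662, - strand): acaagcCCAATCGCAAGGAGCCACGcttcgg

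Calr (chr8:84847069-84847099, + strand): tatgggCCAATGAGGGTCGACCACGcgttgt

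Canx (chr11:50325794-50325824, - strand): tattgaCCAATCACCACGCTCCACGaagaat

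Pdia6 (chr12:17266485-17266515, + strand): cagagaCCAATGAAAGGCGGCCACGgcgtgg

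Dnajc3 (chr14:118937821-118937851, + strand): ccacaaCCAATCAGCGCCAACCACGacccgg

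Creld2 (chr15:88819514-88819544, - strand): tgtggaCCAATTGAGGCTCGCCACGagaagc

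Derl3 (chr10:75893236-75893266, - strand): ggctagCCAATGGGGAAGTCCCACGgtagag

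Syvn1 (chr19:6046526-6046556, + strand): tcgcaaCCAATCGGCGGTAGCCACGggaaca

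The element began between 212 bases (farther copy of Hsp90b1) and 44 bases (Syvn1) before the start. It lay on the strand of the gene in Hspa5, Canx, Pdia6, Dnajc3, Syvn1 and the farther copy of Hsp90b1, and on the opposite strand in Calr, Creld2, Derl3 and the nearer copy of Hsp90b1. Related elements were rarer among these genes. ERSE-II, which reads ATTGG and CCACG with 1 base between them, was found for Herpud1 and Dnajb11 (5.56% of the 36 genes, against 0.0444% of all genes). The core TGACGTG of the element bound by XBP1 was found for Hspa5, Txndc5, Txndc11 and Fkbp11 (11.1%, against 2.22% of all genes). Among genes with a window and a mean FPKM of at least 1, the shares of ERSE-II and TGACGTG were 0.0990% and 3.41%. With the start as base 0, the Fkbp11 match ran from base 0 to 6 and the Dnajb11 match from base 7 to 17, so neither lay before it. No base was shared by matches to different elements. A match is a description of the letters and was not tested for binding.

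Only the Hspa5 window held matches to both the TGACGTG core and the ERSE. Copies with other letters were not sought, and any would be in lower case below. The stretch of 250 bases before the start of Hspa5 (chr2:34771840-34772089, + strand) is shown with the exact matches in capitals. It reads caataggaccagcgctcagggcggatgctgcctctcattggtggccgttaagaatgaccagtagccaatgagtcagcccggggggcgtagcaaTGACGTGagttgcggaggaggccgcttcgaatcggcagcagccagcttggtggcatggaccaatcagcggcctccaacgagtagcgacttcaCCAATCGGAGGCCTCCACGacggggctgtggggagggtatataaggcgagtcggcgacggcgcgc.

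**Figure D1:**
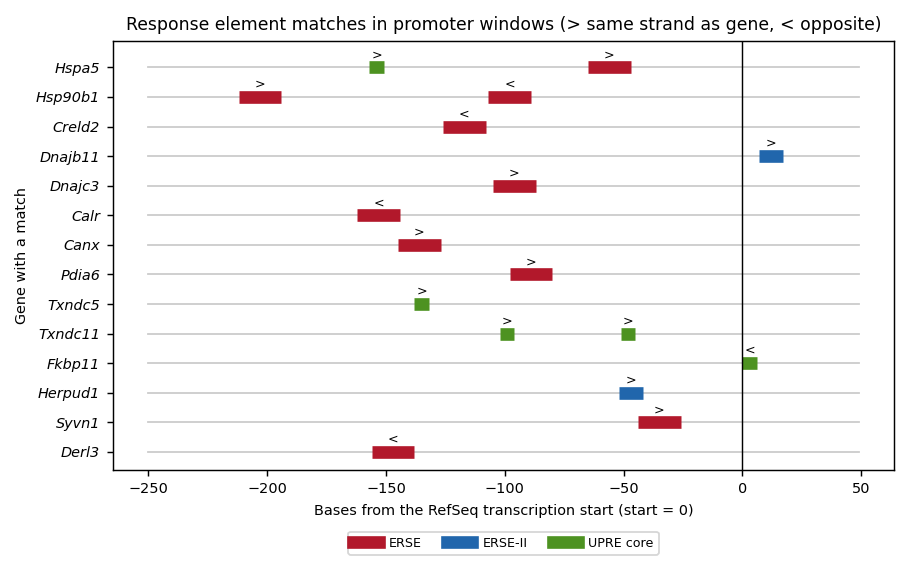
Positions of the matches in the promoter windows of the 14 genes with at least 1 match, in bases from the RefSeq transcription start. Coloured bars span each match and arrowheads give its strand relative to the gene; all ERSE matches lie between 212 and 26 bases before the start.

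All 42 genes were expressed, averaging 1 FPKM or more over the libraries, and most were abundant. The median level was 50.6 FPKM in low and 50.8 FPKM in high glucose, against 14.5 and 14.3 FPKM for the 12694 genes that passed the same filter. A mean of at least 50 FPKM was reached by 22 of the 42 (52.4%), against 19.0% of all genes past the filter, and 3 genes, Hspa5, Pdia6 and Calr, exceeded 500 FPKM. Together the 42 genes summed to 5448 FPKM in low and 5355 FPKM in high glucose, or 0.775% and 0.799% of each library's summed FPKM. The 10 most abundant, Hspa5, Pdia6, Calr, Ppib, Hsp90b1, Pdia3, Manf, Canx, P4hb and Fkbp2, held 73.1% of the sum at 2.8 mM and 73.2% at 25 mM. The insulin transcripts exceeded the whole set by 11.8 times at 2.8 mM and 10.3 times at 25 mM, where Ins2 was at 60328 and 50846 FPKM and Ins1 at 4194 and 4344 FPKM.

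**Figure D2:**
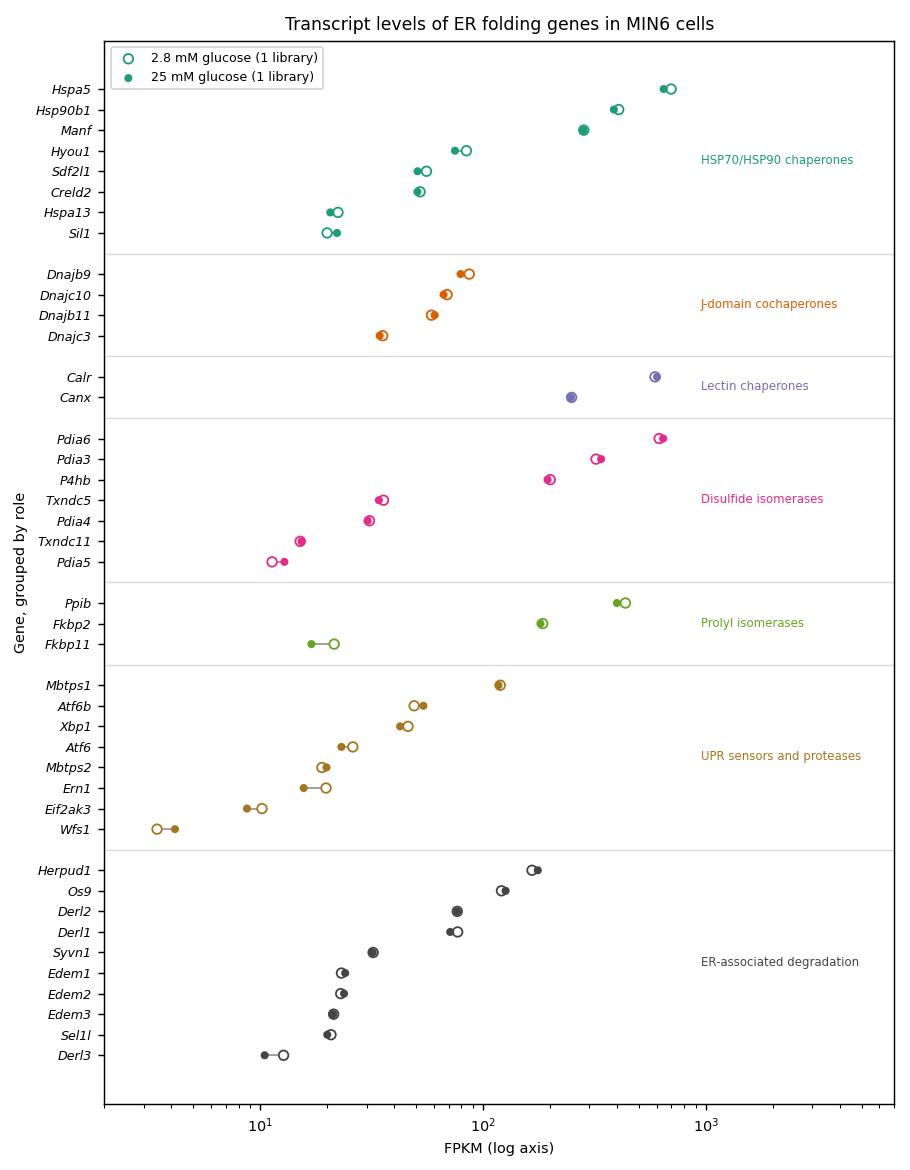
FPKM of each of the 42 genes on a log axis, grouped by role, with open circles for the 2.8 mM library and filled circles for the 25 mM library (1 library each). Levels span from 3.45 FPKM for Wfs1 to 697 FPKM for Hspa5 at 2.8 mM, while the circles of a gene nearly coincide.

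Hspa5 was the most abundant of the set. It stood at 697 FPKM in low and 645 FPKM in high glucose, ranks 109 and 112 among the 12694 genes. Hsp90b1, which encodes the HSP90-family chaperone GRP94, was at 406 and 386 FPKM. The HSP70-family nucleotide exchange factor gene Hyou1 was at 84.1 and 74.8 FPKM, and the other exchange factor gene, Sil1, at 19.97 and 22.1 FPKM. The Hspa5 level was 6.70 times that of Hyou1 and Sil1 summed at 2.8 mM and 6.66 times at 25 mM. Hspa13, for an HSP70 protein without a substrate-binding domain, was at 22.3 and 20.6 FPKM.

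Manf encodes a small ER protein that binds BiP and is secreted under stress, and it was the third most abundant gene of this role at 283 and 282 FPKM. Sdf2l1, a BiP cochaperone gene, was at 55.7 and 50.8 FPKM. Creld2, a gene induced by ER stress, was at 52.1 and 50.7 FPKM. Of the 8 genes of this role, 7 had a lower FPKM at 25 mM and 1 (Sil1) a higher one, with a median log2 change of -0.09. Among all genes with a mean of at least 1 FPKM, 54.4% were lower and 45.6% higher, the background for this and later counts of direction. With both libraries set to the same summed FPKM, Manf (0.065) and Creld2 (0.028) turned positive. Hspa5, Hsp90b1, Hyou1, Sdf2l1 and Hspa13 stayed negative. Here and below, the log2 change is the log2 of the ratio of high to low glucose after 1 FPKM is added to both values, and it is too small for genes of low FPKM. The largest in size were those of Hyou1 (-0.17) and Sil1 (0.14), so every gene of the role differed by less than 1.2-fold.

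The J-domain cochaperones, which deliver clients to BiP, lay closer to each other. Dnajb9, for ERdj4, which also brings BiP to the sensor IRE1, was at 86.7 FPKM in low and 79.3 FPKM in high glucose. Dnajc10, for the reductase ERdj5, was at 68.9 and 66.5 FPKM, and Dnajb11, for ERdj3, at 58.7 and 60.7 FPKM. Dnajc3, for the PERK inhibitor p58IPK, was lowest at 35.4 and 34.4 FPKM. Hspa5 exceeded these cochaperones summed by 2.79 times at 2.8 mM and 2.68 times at 25 mM. Their log2 changes ran from -0.13 (Dnajb9) to 0.05 (Dnajb11).

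The lectin chaperones calreticulin and calnexin bind glycoproteins through a trimmed sugar chain. Calr, for the soluble calreticulin, was at 590.2 and 603 FPKM, and Canx, for the membrane-bound calnexin, at 249 and 248 FPKM. Calr was 2.37 times as abundant as Canx at 2.8 mM and 2.43 times at 25 mM. Both differed by under 1.1-fold between the libraries, with log2 changes of 0.03 and -0.008.

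The 7 disulfide isomerase genes covered a wide span of levels. Pdia6, for P5, was the most abundant at 616 FPKM in low and 642 FPKM in high glucose. Pdia3, for ERp57, the partner of the lectin chaperones, was at 321 and 339 FPKM. P4hb, for the classical protein disulfide isomerase, was at 200.1 and 195 FPKM. Pdia6 thus exceeded P4hb by 3.08 times at 2.8 mM and 3.30 times at 25 mM, and Pdia4, for ERp72, by 19.9 and 21.2 times.

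Lower levels were found for Txndc5 (35.7 and 34.1 FPKM), Pdia4 (30.9 and 30.3 FPKM) and Txndc11 (15.1 and 15.3 FPKM), all thioredoxin-domain genes. Pdia5 was the lowest isomerase gene at 11.3 and 12.8 FPKM and had the highest log2 change of the role, 0.17. The isomerase group had a median log2 change of 0.02, with 4 genes higher and 3 lower at 25 mM. The lowest change was that of Txndc5 (-0.07).

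Prolyl isomerases turn proline bonds during folding. Ppib, for cyclophilin B, was at 435 FPKM in low and 398 FPKM in high glucose, a log2 change of -0.13. Part of the reads of Ppib may not be assignable to it alone. Of the 31-base words of its longest transcript, 37.3% occur in other annotated genes. Snx22 overlaps 25.0% of its exon bases on the opposite strand. Fkbp2 was at 185 and 181 FPKM. Fkbp11 stood apart at 21.5 and 17.0 FPKM, a log2 change of -0.32, the lowest of all 42 genes. All 3 genes of the role were lower at 25 mM, under every rescaling of the libraries except for Fkbp2, which turned to 0.034 when both were set to the same summed FPKM and to 0.0089 when mitochondrial and the 10 most abundant genes were left out of the sum.

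The sensor genes Ern1 and Eif2ak3 were among the least abundant of the set, whereas Atf6 and its paralog Atf6b were not. Ern1, for IRE1, was at 19.7 FPKM in low and 15.7 FPKM in high glucose, a log2 change of -0.32. Eif2ak3, for PERK, was at 10.2 and 8.73 FPKM (-0.20). Atf6 was at 26.0 and 23.1 FPKM (-0.16), and Atf6b was at 49.1 and 54.0 FPKM (0.13). Atf6b was 1.88 times as abundant as Atf6 at 2.8 mM and 2.33 times at 25 mM. Ern1, Eif2ak3 and Atf6 were thus lower at 25 mM and Atf6b higher, in these libraries and under each rescaling.

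Xbp1, whose RNA is spliced by IRE1, was at 46.0 and 42.4 FPKM, with a log2 change of -0.11 at the level of the gene, which does not separate the spliced from the unspliced form. The Golgi proteases that release ATF6 differed in level. Mbtps1, for site-1 protease, was at 119 and 117 FPKM and Mbtps2, for site-2 protease, at 18.9 and 19.8 FPKM. Of the exon bases of Mbtps2, 28.4% lie within Yy2 on the same strand. Wfs1, for wolframin, an ER membrane protein whose loss causes diabetes, was the least abundant gene of the set at 3.45 and 4.15 FPKM, ranks 10315 and 9895. It also had the highest log2 change of the set, 0.21.

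Genes of ER-associated degradation lay in between. Herpud1, for a membrane scaffold of the HRD1 complex, was at 166 FPKM in low and 176 FPKM in high glucose, and Os9, for a lectin that delivers clients to it, at 121 and 126 FPKM. Their log2 changes, 0.09 and 0.06, were the highest of the role. Syvn1, for the ligase HRD1, was at 32.1 and 31.99 FPKM and its partner Sel1l at 20.8 and 19.997 FPKM. Edem1, Edem2 and Edem3, for proteins of mannose trimming, ranged from 21.4 to 23.2 FPKM at 2.8 mM and from 21.3 to 24.1 FPKM at 25 mM.

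Derlins form part of the channel back to the cytosol. Derl1 was at 76.9 and 71.2 FPKM and Derl2 at 76.6 and 76.5 FPKM, whereas Derl3 was at 12.7 and 10.5 FPKM. Derl1 and Derl2 summed exceeded Derl3 by 12.1 times at 2.8 mM and 14.1 times at 25 mM. Derl3 had the lowest log2 change of the role, -0.26, followed by Derl1 (-0.11). The role's median was -0.004, with 4 genes higher and 6 lower.

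The question put to the set as a whole was whether 1 h at 25 mM glucose gave other levels than 1 h at 2.8 mM. No gene of the 42 was at least 1.5-fold higher and none at least 1.5-fold lower at 25 mM. Among all genes averaging 1 FPKM or more, 1.95% were at least 1.5-fold higher and 2.51% at least 1.5-fold lower, so a count of 0 among 42 genes is near the background. Among protein-coding genes at a mean of 10 FPKM or more, a group closer to the set in level and chosen after the data were seen, the percentages were 0.268% and 0.437%. In a bulk library, fewer cells of a type and less RNA per cell cannot be told apart.

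At the smaller threshold of 1.2-fold, Fkbp11 and Ern1 were lower and no gene was higher. These 2 genes are 4.76% of the set, against 10.8% of all genes with a mean of at least 1 and 5.05% of protein-coding genes with a mean of at least 10. For the higher direction the background was 7.41% and 3.00%. Derl3 lay just short of the threshold and passed it with a pseudocount of 0.1. Without a pseudocount, Wfs1 was 1.203-fold higher at 25 mM and so just past the threshold in the other direction. With both libraries set to the same summed FPKM, none of the genes was 1.2-fold lower and Wfs1 was 1.2-fold higher (0.26). Among protein-coding genes with a mean of at least 10, the changes of Fkbp11, Ern1 and Derl3 were at percentiles 2.86, 3.06 and 5.16, and that of Wfs1, itself below that mean, at percentile 94.8.

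**Figure D3:**
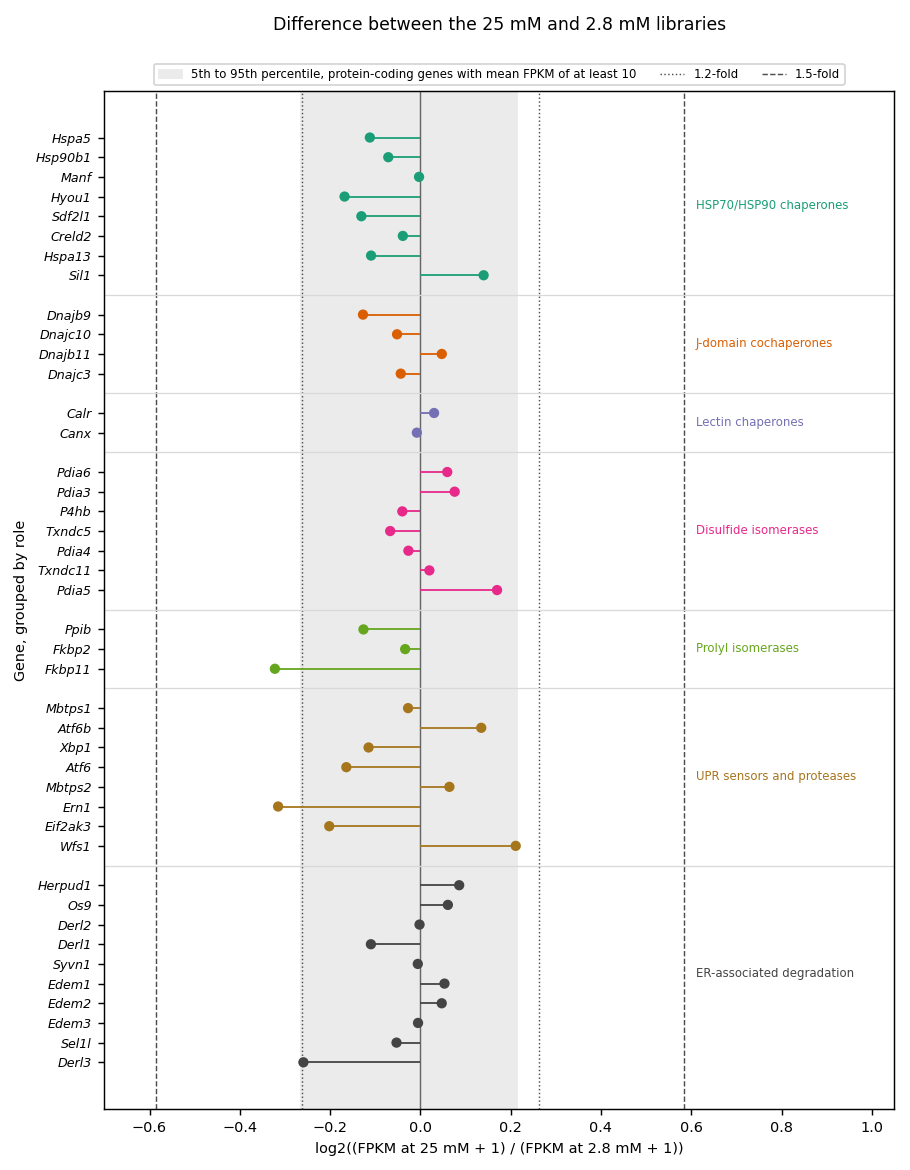
The log2 change of each of the 42 genes, 25 mM against 2.8 mM (1 library each), grouped by role as dots with lines from 0. The grey band spans the 5th to 95th percentile of 7096 protein-coding genes (-0.26 to 0.21), dotted and dashed lines mark 1.2-fold and 1.5-fold, and Fkbp11 and Ern1 lie to the left of the band.

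The direction of the small differences depended on the scaling. The median log2 change of the 42 genes was -0.03, from -0.32 to 0.21, beside -0.017 for all genes with a mean of at least 1. As deposited, 14 genes were higher and 28 lower at 25 mM (33.3% higher), against 45.6% higher among all genes past the filter. With both libraries set to the same summed FPKM, 27 were higher and 15 lower, with 13 genes changing sign, and the median was 0.036 for the set and 0.045 for all genes. With the changes centred on the median of all genes, 19 were higher and 23 lower, with 5 genes changing sign and a median of -0.014 for the set. The summed FPKM of the set at 25 mM was 0.983 times that at 2.8 mM. The order of the genes by level was nearly the same in the libraries, with a Spearman's rho of 0.995 across the 42 genes, which share both libraries and are not independent replicates.

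Most genes of the set differed little between the libraries. Of the 42, 33 (78.6%) were less than 1.1-fold apart, against 59.2% of all genes with a mean of at least 1 and 71.5% of protein-coding genes with a mean of at least 10. Less than 1.2-fold apart were 40 (95.2%), against 81.8% and 92.0%. The median absolute log2 change was 0.066 in the set, 0.11 in all genes and 0.084 in the protein-coding genes. These are descriptions of 2 libraries, and abundant genes are measured with less counting error than scarce ones.

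**Figure D4:**
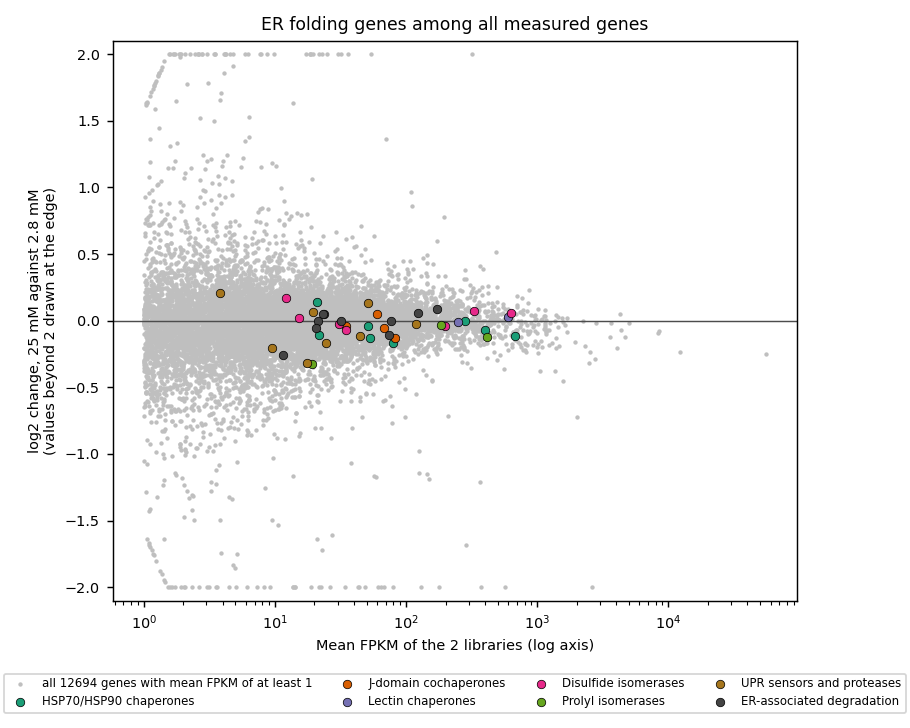
The log2 change against the mean FPKM of the 2 libraries (log axis) for 12694 genes in grey and the 42 genes coloured by role. The coloured points stay between -0.32 and 0.21 across their whole range of levels, while grey points spread widely at low FPKM; values beyond 2 are drawn at the edge.

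For genes with a single listed transcript, fragment numbers follow from the FPKM and the transcript length, and the set held 3 such genes, Creld2, Dnajc3 and Sdf2l1. Creld2 rested on 1093 fragments at 2.8 mM and 924 at 25 mM, with an exact 95% interval of the log2 ratio, without a pseudocount, from -0.17 to 0.09. Dnajc3 rested on 3346 and 2779 fragments, with an interval from -0.12 to 0.03, and Sdf2l1 on 888 and 707 fragments, with an interval from -0.28 to 0.0098. All 3 intervals include 0. They hold counting error alone and describe this pair of libraries. The other 39 genes had from 2 to 11 listed transcripts, so the authors' assignment of reads to isoforms also enters their FPKM.

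The genes with an ERSE match had a higher median level than the other genes of the set with a window, and differed little between the libraries. The 9 genes had a median mean level of 249 FPKM, from 11.6 (Derl3) to 671 FPKM (Hspa5). The 27 genes with a window and no match to the exact ERSE letters had a median of 44.2 FPKM. Their median log2 changes were -0.04 and -0.03, with 2 genes higher and 7 lower among the 9, and 11 higher and 16 lower among the 27. The changes of the 9 whose elements are printed above ranged from -0.26 (Derl3) to 0.06 (Pdia6). Split by a match to any of the elements, the medians were closer, at 55.6 FPKM for 14 genes with a match and 47.9 FPKM for 22 without. Outside the set, 6 genes averaging 1 FPKM or more had an ERSE match, with a median level of 8.70 FPKM and log2 changes from -0.60 to 0.67. The levels were not tested against the presence of the element.

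Other genes of ER folding and quality control were followed through a separate list of 73. Of these, 62 had a mean FPKM of at least 1, 4 were below it and 7 were listed at 0 in both libraries: Pdia2, Pdilt, Ern2, Creb3l1, Gpx7, Gpx8 and Ppic. None of the 62 was 1.5-fold apart, and their median log2 change was -0.008. At 1.2-fold, 4 were higher (6.45%) and 1 was lower (1.61%), against the same background of 7.41% and 10.8%. Of the 54 genes of this list with a promoter window, none had an ERSE match. ERSE-II was found for Nucb1 (1.85%) and the TGACGTG core for Dnajc25, Mogs, Ube2j1 and Vcp (7.41%).

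The most abundant of that list was Ero1lb, for the beta-cell-enriched oxidase that recharges disulfide isomerases, at 431 FPKM in low and 383 FPKM in high glucose (log2 change -0.17). Its paralog Ero1l was at 46.9 FPKM in each library. Prdx4, for an ER peroxiredoxin, followed at 232 and 225 FPKM, then Selenof (192 and 194 FPKM), Fkbp9 (172 and 170 FPKM) and Prkcsh, for the beta subunit of glucosidase II (163 and 164 FPKM). Ero1lb was thus at the level of Hsp90b1, above P4hb and below Pdia6. Of the 31-base words of Ero1lb, 16.2% occur in other annotated genes, as do 12.6% of those of Hsp90b1.

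The highest log2 changes of the list were those of Vcp (76.4 and 97.6 FPKM, 0.35), Selenok (128 and 161 FPKM, 0.34), Uggt2 (4.80 and 6.17 FPKM, 0.30) and Ube2j2 (61.9 and 74.6 FPKM, 0.27). Vcp encodes the ATPase that pulls degradation clients out of the membrane, but 68.2% of its 31-base words occur in other annotated genes. The same share was 18.4% for Selenok, 18.5% for Ube2j2 and 2.96% for Uggt2. Among those with a mean of at least 1, the lowest were Dnajc1 (11.2 and 8.63 FPKM, -0.34), Faf2 (44.8 and 37.6 FPKM, -0.25), Selenos (102 and 86.4 FPKM, -0.24), Ubxn8 (8.04 and 6.80 FPKM, -0.21) and Fkbp14 (5.57 and 4.84 FPKM, -0.17). Of these lowest, Dnajc1 alone was past 1.2-fold.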

How the data were processed

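RNA from MIN6 cells at 2 glucose concentrations was sequenced, with 1 library each. The deposited values are FPKM, per the file headers. The submitters' processing notes name HISAT2, Cuffdiff and the build GRCm38. For the library kit, strand and annotation release, the sources used here say nothing. Without stated strand use, reads of overlapping antisense genes cannot be told apart. Each deposited file held 1 empty row, which was not used, and 27 symbols stored as dates were restored by gene ID.

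The 42 genes and the lists were chosen with earlier results of these data known. Named were all 42 genes, and of the other ER genes the 5 highest and 5 lowest changes and the 5 most abundant, of which 1 is not reported here. Changes used a pseudocount of 1 and a minimum mean FPKM of 1. Thresholds were 1.5-fold and 1.2-fold. With 1 library per group no test was possible.

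Total fragments were fitted to the steps of low FPKM in genes with 1 transcript of at least 800 nt (GENCODE M21); 95.4% of 2324 values at 2.8 mM and 94.6% of 2104 at 25 mM lay within 0.1 of a whole fragment. Intervals are exact Clopper-Pearson. Shared 31-base words and exon overlaps came from GENCODE M21, promoter windows from RefSeq (GRCm38.p6). Protein features were not analysed here. In data simulated for 55466 genes with counting error alone, 199 of 200 genes altered 2-fold (99.5%) were found at 1.5-fold. The altered genes were drawn from those with a mean of at least 5 FPKM. Smaller differences, such as those reported here, and differences between cultures were not simulated. Alternatives were pseudocounts, filters, 3 scalings and row sums. Leaving out genes with over 20% of shared words or of overlapped exon bases was chosen after the data were seen. Software was Python 3.11.15 with pandas 2.3.3, NumPy 2.4.6, matplotlib 3.10.9 and SciPy 1.17.1.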

Additional observations from a re-analysis of the deposited data

How the results depend on the processing

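No gene of the 42 was 1.5-fold apart under any of the 9 alternatives. The number at least 1.2-fold lower was 2 as deposited, 3 with a pseudocount of 0.1, 1 with a pseudocount of 5, and 0 with the same summed FPKM, where 1 was higher. Scaling to the same sum moved the median log2 change from -0.03 to 0.036 for the 42 genes, from 0.01 to 0.079 for lectin chaperones, from -0.004 to 0.063 for degradation genes and from -0.008 to 0.059 for other ER genes. Leaving mitochondrial and the 10 most abundant genes out of the sum gave 0.012 for the 42 genes, 0.054 for lectin chaperones and 0.034 for other ER genes. These scalings shift all genes of a library alike, by 0.062 and 0.039 in the median gene, and 13 and 10 of the 42 genes changed sign, against 5 when centred on the median gene. The HSP70 and HSP90 group, the prolyl isomerases and the UPR group kept a negative median under the 9 alternatives, and the disulfide isomerases a positive one. Only the 3 scalings changed the sign of any gene, so the other alternatives say little about direction. With the same summed FPKM the medians were -0.024 for the HSP70 and HSP90 group and -0.0042 for the UPR group. They were -0.058 for the prolyl isomerases and 0.084 for the disulfide isomerases, and that of the J-domain group turned from -0.048 to 0.019. Ppib and Mbtps2 were the genes past 20% in shared 31-base words or in overlapped exon bases. Leaving them out left the counts past each threshold and the median of the set as they were. It moved the median of the UPR group from -0.071 to -0.11 and that of the prolyl isomerases from -0.13 to -0.18. Genes that were kept also shared sequence, such as Hsp90b1 with 12.6% of its words, and 14 of the 42 shared over 1%. No paired analysis was possible because each concentration had 1 library, and for the same reason none could be left out. With 1 library per group, the sizes above carry counting error and culture differences that could not be measured.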
